A study of Arabidopsis thaliana with 9 samples.

Results

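On 9 arrays, 152 of 22746 probe sets were lower by at least 0.6 on the log2 scale in both oxidase double mutants than in leaves that lack the catalase CAT2 alone. A probe set is a group of short array probes that reads 1 transcript, or several similar ones. The 152 were chosen by their means, with a mean of at least 5.5 on the 3 cat2 arrays and a difference from cat2 of -0.6 or less in cat2 rbohD and in cat2 rbohF. Of the 12778 probe sets with such a cat2 mean, 194 met the limit in cat2 rbohD and 755 in cat2 rbohF, so that the 152 are 78.4% of the former and 20.1% of the latter. Both differences are taken against the same 3 cat2 arrays. Because these differences chose the probe sets, they are given below as a description and not as a test.

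The genotypes were a cat2 line, titled cat2-2, and the double mutants cat2 rbohD and cat2 rbohF, titled cat2-2 atrbohD and cat2-2 atrbohF, all in Columbia-0. All plants thus carried the catalase mutation, and no wild-type array was analysed here. Leaves were taken from plants of 3 weeks grown in air at 200 umol m-2 s-1 with 16 h of light and 8 h of dark, with 3 pools of at least 8 plants per genotype, each pool on 1 Affymetrix array. Values are log2 expression values made by the authors with GCRMA. Each oxidase is represented by 1 mutant line in the labels, and the mutations are present in every cell of the leaf.

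CAT2 is the main catalase of leaf peroxisomes and removes the hydrogen peroxide that photorespiration makes, so that the mutant is under oxidative stress from inside the cell in moderate light. RBOHD and RBOHF are NADPH oxidases of the plasma membrane that make superoxide outside the cell, which is converted to hydrogen peroxide. This apoplastic oxidant is known from the burst that follows pathogen recognition, from systemic signalling and from cell wall peroxidases, which use it in lignin polymerisation. The genes described here are those whose transcripts in stressed catalase-deficient leaves lay lower when either oxidase was also missing.

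The annotation gave 1 gene for 65 of the 152 probe sets, several genes for 2 and no entry for 85, which are called here by their probe set identifiers. Of the 65 genes, 12 encode secreted defence proteins, 12 receptors and other immune signalling proteins, 11 enzymes and carriers of redox balance, conjugation and efflux, and 7 proteins of phenylpropanoid metabolism and the cell wall. A further 3 encode methyltransferases, 2 act on lipids, 2 in hormone response and growth, 1 in protein folding, and 15 were put in no group. The groups were made after the genes were known, so their sizes describe the genes found and are not an enrichment. The probe sets of CAT2, RBOHD and RBOHF were not named by the annotation, and neither were those of the 6 fixed mesophyll markers, so that neither genotype nor leaf identity was checked by named probe sets.

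The typical difference was larger without RBOHF. Over the 152 probe sets the median was -0.82 in cat2 rbohD, a 1.77-fold lower level, and -1.31 in cat2 rbohF, a 2.48-fold lower level. The middle 50% ran from -1.08 to -0.71 in cat2 rbohD and from -1.63 to -1.08 in cat2 rbohF, with the limit of -0.6 cutting off the upper end of both. In 29 of the 152 the mean of a double mutant lay under 5.14, the value of the filter on dim probe sets, where differences are compressed. In bulk leaf samples, fewer cells of a type and less RNA per cell cannot be told apart.

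**Figure D1:**
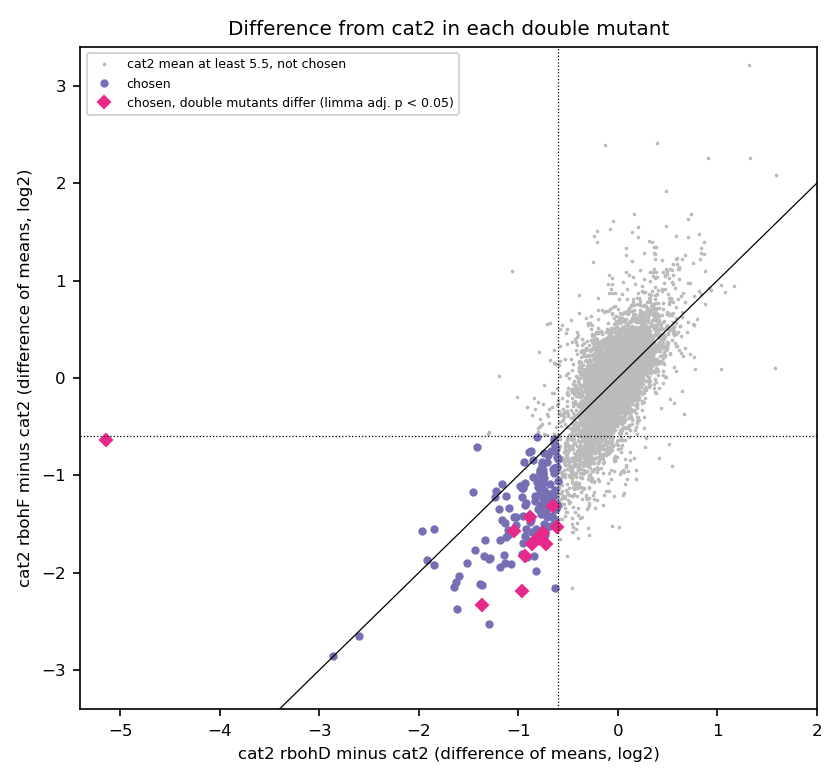
Each point is 1 probe set with a cat2 mean of at least 5.5, with its difference from cat2 in cat2 rbohD (x axis, log2) and in cat2 rbohF (y axis, log2); grey points were not chosen, pink diamonds are the 12 chosen probe sets called between the double mutants, dotted lines mark -0.6 and the solid line marks equal differences. Of the 152 chosen probe sets, 136 lie under the line of equal differences, and 1 lies far to the left at -5.15.

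The difference between the means of the double mutants does not involve cat2. Its SE and limma p-value do, because the cat2 arrays were in the same model and add to its estimate of the spread. The rule bounds each difference from cat2 but not the difference between the double mutants. That difference does use the same double mutant arrays as the rule. The level in cat2 rbohF was the lower one at 136 of the 152 probe sets (89.5%), beside 51.0% of all probe sets with the same cat2 minimum. Since 755 probe sets passed the limit in cat2 rbohF and 194 in cat2 rbohD, a choice on both limits can itself favour the lower level in cat2 rbohF, and the share over all probe sets is not what the choice alone would give. The median of cat2 rbohF minus cat2 rbohD was -0.45 over the 152, and over all 12778 it was -0.00453. At 45 of the 152 the level in cat2 rbohF lay lower by 0.6 or more, and at 35 the double mutants lay within 0.2 of each other. The 3 cat2 rbohF arrays all lay below the 3 cat2 rbohD arrays at 42 of the 152 (27.6%), where the background over all probe sets with the cat2 minimum was 14.2%. They all lay above them at 1 of the 152, with a background of 12.7%.

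Few of these differences passed the test for a single probe set. Of the 148 that passed the filter on dim probe sets, 11 were lower in cat2 rbohF than in cat2 rbohD (limma adjusted p under 0.05 over all 13888 tested) and 1 was higher, against a background of 1.06% lower and 0.864% higher among all tested. The count of 11 rested on single arrays. It was 0 without cat2 rbohD replicate 2, without cat2 rbohF replicate 1 and without cat2 rbohF replicate 3, 1 without cat2 rbohD replicate 1, and 3, 7 and 4 without cat2 replicate 1, 2 and 3. It was 38 without cat2 rbohD replicate 3 and 18 without cat2 rbohF replicate 2, and 0 with only the 6 arrays compared. The median difference kept its sign throughout, between -0.58 and -0.34 with any 1 double mutant array left out.

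Of the 11, 4 had a gene name. AT1G76470, which encodes a protein of the NAD(P)-binding Rossmann-fold family, read 7.66, 7.32 and 7.48 on the cat2 arrays, 5.94, 6.10 and 6.34 in cat2 rbohD and 5.26, 5.10 and 5.09 in cat2 rbohF. The 3 genotypes formed separate steps with no overlap. Its level was 2.57-fold lower than cat2 in cat2 rbohD and 5.05-fold lower in cat2 rbohF, and the step between the double mutants was -0.98 ± 0.12 (SE, limma adjusted p = 0.0204). AT4G19370, of the DUF1218 family, showed the same order, with 6.93, 6.79 and 7.10 in cat2, 5.92, 6.02 and 6.07 in cat2 rbohD and 4.93, 5.32 and 5.08 in cat2 rbohF. Its step was -0.89 ± 0.12 (SE, limma adjusted p = 0.0204), with a cat2 rbohF mean under the filter value. Both calls were lost without cat2 rbohD replicate 2 or without cat2 rbohF replicate 1 or 3, and that of AT4G19370 also without cat2 rbohD replicate 1 (largest limma adjusted p 0.135 and 0.144).

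The other 2 were named because of their call, after their values were seen. AT1G26420, a berberine bridge enzyme-like gene, read 7.57, 7.77 and 7.77 in cat2 rbohD and 6.67, 7.27 and 6.64 in cat2 rbohF, after 8.51, 8.55 and 8.29 in cat2. The leucine-rich repeat receptor kinase gene AT5G25930 read 8.18, 8.12 and 7.99 in cat2 rbohD and 7.26, 7.54 and 7.48 in cat2 rbohF, after 8.65, 8.99 and 8.59 in cat2. Neither gene had overlapping genotypes on the 9 arrays. The steps between the double mutants were -0.84 ± 0.16 and -0.67 ± 0.12 (SE, limma adjusted p = 0.0413 and 0.0389). The call of AT1G26420 held only without cat2 rbohD replicate 3 or cat2 rbohF replicate 2 among the 9 sets with 1 array left out, and that of AT5G25930 also without cat2 replicate 2 (largest limma adjusted p 0.180 and 0.177).

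The opposite case was the unnamed probe set 248719_at, the 1 call in the other direction. It read 9.64, 9.47 and 9.64 in cat2 and 8.85, 9.02 and 8.97 in cat2 rbohF, but 4.43, 4.38 and 4.5 in cat2 rbohD. The cat2 rbohD arrays lay under the filter value, and the cat2 rbohF arrays just under those of cat2. The double mutants differed by 4.51 ± 0.08 (SE, limma adjusted p = 3.72e-09), and the call held under all 19 alternatives. With cat2 rbohD so dim, where differences are compressed, the size of this difference is not exact. With its small difference of -0.64 in cat2 rbohF, this probe set entered only just. The annotation named no RBOHD probe set, and whether 248719_at reads the mutated RBOHD gene itself was not tested.

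The unnamed probe sets 252265_at and 247573_at had the largest mean differences of the rest. The former read 8.97, 8.83 and 8.55 in cat2, 6.2, 5.89 and 5.68 in cat2 rbohD and 6.26, 5.87 and 5.64 in cat2 rbohF. It was thus 7.26-fold and 7.25-fold lower, and the double mutants differed by 0.00 ± 0.18 (SE, limma adjusted p = 0.999). The latter read 7.57, 7.38 and 6.80 in cat2, 4.51, 4.63 and 4.83 in cat2 rbohD and 4.67, 4.84 and 4.30 in cat2 rbohF, and the double mutants differed by -0.05 ± 0.20 (SE, limma adjusted p = 0.912). Both probe sets were well separated from cat2, and the mutants overlapped each other. All 6 double mutant arrays of 247573_at lay under the filter value, so a difference between the double mutants could not be resolved there.

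**Figure D2:**
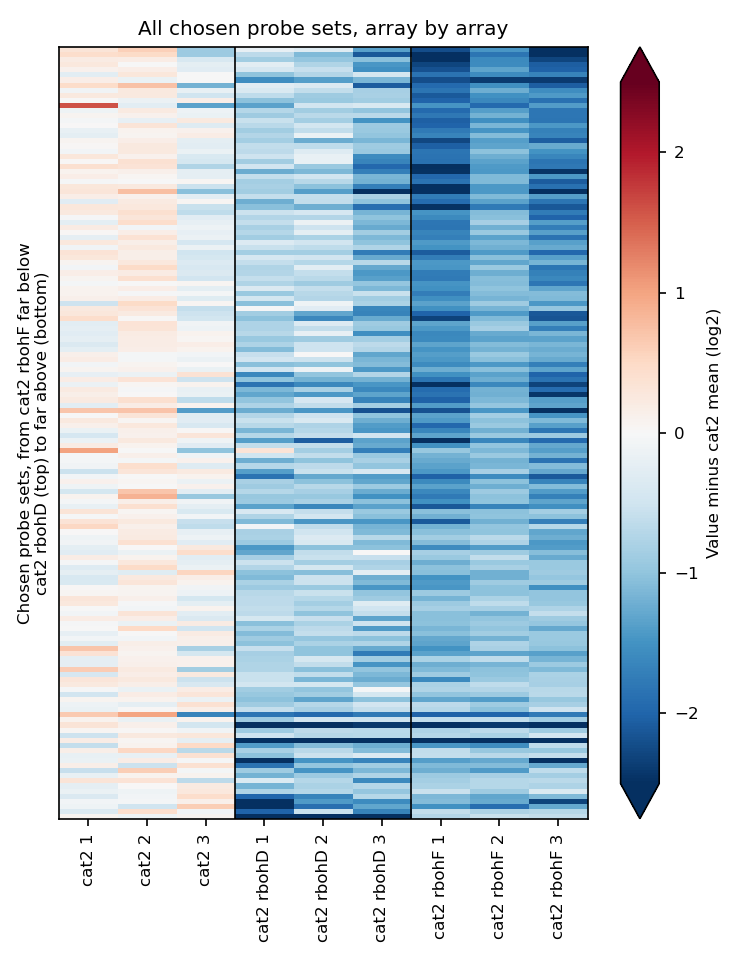
Colour gives the value minus the cat2 mean (log2) of all 152 chosen probe sets (rows) on the 9 arrays (columns), with rows ordered by cat2 rbohF minus cat2 rbohD and colours ending at 2.5 in either direction. Most rows are darker in cat2 rbohF than in cat2 rbohD, and the bottom row, 248719_at, is dark only in cat2 rbohD.

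Among the secreted defence proteins, 8 of 12 genes had the lower level in cat2 rbohF and 4 the higher, with a median of cat2 rbohF minus cat2 rbohD of -0.33. Over all 152, the level was lower at 89.5%, with a median of -0.45. None of the 12 passed the test between the double mutants. PDF1.2, a plant defensin gene used as a marker of jasmonate and ethylene signalling, read 11.64, 11.67 and 11.83 in cat2, 9.18, 10.29 and 10.14 in cat2 rbohD and 10.63, 10.46 and 9.39 in cat2 rbohF. Its relative PDF1.2b read 11.72, 12.08 and 11.86 in cat2, 9.26, 10.42 and 10.24 in cat2 rbohD and 10.52, 10.61 and 8.92 in cat2 rbohF. Both lay below cat2 on every double mutant array, and each double mutant had 1 array well under its others, replicate 1 in cat2 rbohD and replicate 3 in cat2 rbohF. The double mutants differed by 0.29 ± 0.35 for PDF1.2 and by 0.04 ± 0.43 for PDF1.2b (SE, limma adjusted p = 0.668 and 0.966), and both signs turned without cat2 rbohD replicate 1. The PDF1.2b probe set has the x suffix that marks probes able to match other transcripts, so the pair may not be independent readings.

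Enzymes that attack fungal cell walls were in the same group. AT4G16260, of the beta-1,3-glucanase family, read 10.24, 10.53 and 11.03 in cat2, 8.61, 8.95 and 9.88 in cat2 rbohD and 9.48, 9.30 and 9.50 in cat2 rbohF. The chitinase family gene AT2G43590 read 7.83, 8.60 and 8.12 in cat2, 6.18, 7.62 and 6.51 in cat2 rbohD and 7.56, 7.42 and 7.46 in cat2 rbohF. It was the named gene with the highest level in cat2 rbohF relative to cat2 rbohD, at 0.71 ± 0.32 (SE, limma adjusted p = 0.236), with overlapping arrays. A second chitinase family gene, AT2G43620, lies on the same chromosome with 4 genes between them and had the other order, with 7.84, 8.17 and 7.29 in cat2, 7.17, 7.09 and 6.4 in cat2 rbohD and 5.99, 6.71 and 6.16 in cat2 rbohF.

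The lectins of the group were abundant. AT3G16530, a legume-type lectin gene, read 12.02, 12.36 and 11.77 in cat2, 11.32, 11.31 and 11.05 in cat2 rbohD and 10.45, 11.00 and 10.05 in cat2 rbohF, so that the genotypes did not overlap. The mannose-binding lectin gene AT5G18470 read 9.74, 9.80 and 9.35 in cat2, 9.22, 9.06 and 8.10 in cat2 rbohD and 7.46, 8.32 and 7.62 in cat2 rbohF. Here cat2 rbohD replicate 3 lay among the cat2 rbohF arrays, and the difference of -0.99 ± 0.31 (SE, limma adjusted p = 0.102) passed the threshold without that array (limma adjusted p = 0.0170). AT2G23270 and AT4G37290, which encode precursors of secreted signalling peptides, were lower than cat2 by 1.34 and 0.72 in cat2 rbohD means and by 1.67 and 1.3 in cat2 rbohF means.

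The receptors and immune signalling genes were lower in cat2 rbohF than in cat2 rbohD at 12 of 12, with a median difference of -0.62. This count is near the share over all 152, where 136 (89.5%) were lower with a median of -0.45. The genes put in no group were lower at 15 of 15. Of the 12, only 1, AT5G25930, passed the test. WRKY53, which encodes a transcription factor known from leaf senescence, read 8.97, 8.71 and 8.47 in cat2, 8.45, 7.97 and 7.26 in cat2 rbohD and 6.42, 7.14 and 6.65 in cat2 rbohF. It was 1.77-fold lower in cat2 rbohD and 3.95-fold lower in cat2 rbohF, and all cat2 rbohF arrays lay under all cat2 rbohD arrays. The difference of -1.16 ± 0.29 (SE, limma adjusted p = 0.0646) passed the threshold without cat2 rbohD replicate 3 (limma adjusted p = 0.0117). Its relative WRKY6 read 7.81, 8.12 and 7.64 in cat2, 7.32, 7.01 and 7.03 in cat2 rbohD and 6.64, 6.94 and 6.93 in cat2 rbohF, a smaller step of -0.29 ± 0.14 (SE, limma adjusted p = 0.272).

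At the cell surface, the lectin receptor kinase gene B120 read 6.79, 6.77 and 5.95 in cat2, 5.45, 5.28 and 4.62 in cat2 rbohD and 4.04, 4.74 and 4.38 in cat2 rbohF. All its cat2 rbohF arrays lay under the filter value. The calmodulin-like gene CML37, whose protein binds calcium, read 6.62, 6.97 and 6.15 in cat2, 5.72, 6.4 and 4.94 in cat2 rbohD and 4.71, 5.24 and 4.76 in cat2 rbohF, and cat2 rbohD overlapped both other genotypes. Among negative regulators, the ubiquitin ligase gene PUB24, which dampens pattern-triggered immunity, was 1.60-fold lower in cat2 rbohD and 2.13-fold lower in cat2 rbohF.

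In phenylpropanoid metabolism and the cell wall, 7 of 7 genes were lower in cat2 rbohF than in cat2 rbohD, with a median difference of -0.29. This count is near the share over all 152, where 136 (89.5%) were lower with a median of -0.45. CCR2, a cinnamoyl-CoA reductase of the lignin pathway, read 6.81, 6.83 and 6.60 in cat2, 5.73, 5.43 and 5.72 in cat2 rbohD and 5.44, 5.35 and 5.80 in cat2 rbohF. The levels were 2.17-fold and 2.32-fold below cat2, and the double mutants overlapped with a difference of -0.10 ± 0.13 (SE, limma adjusted p = 0.722). Prx37, a class III peroxidase of the kind that uses hydrogen peroxide in the cell wall, read 8.48, 8.55 and 9.05 in cat2, 7.09, 7.70 and 7.96 in cat2 rbohD and 7.18, 7.36 and 6.70 in cat2 rbohF. CCOAMT, a caffeoyl-CoA O-methyltransferase, read 7.29, 7.43 and 8.03 in cat2 and 6.29, 6.96 and 7.60 in cat2 rbohD, which overlapped, and 6.76, 6.70 and 6.51 in cat2 rbohF.

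Among the enzymes and carriers of redox balance, conjugation and efflux, 9 of 11 (81.8%) were lower in cat2 rbohF than in cat2 rbohD. The share over all 152 was 89.5%. AT1G26380, a berberine bridge enzyme-like gene with 3 genes between it and AT1G26420, read 9.21, 9.30 and 8.89 in cat2, 8.28, 7.90 and 8.00 in cat2 rbohD and 6.86, 7.76 and 7.08 in cat2 rbohF. Like its neighbour it formed 3 separate steps, and the step between the double mutants was -0.83 ± 0.21 (SE, limma adjusted p = 0.0710). AT3G23550, a MATE efflux carrier gene, was 2.54-fold lower in cat2 rbohD and 3.56-fold lower in cat2 rbohF. The adjacent glucosyltransferase genes UGT73B5 and UGT73B4 were 1.73-fold and 1.56-fold lower in cat2 rbohD and 2.14-fold and 1.90-fold lower in cat2 rbohF. The exceptions were UGT76E12, too dim to be tested, and the CC-type glutaredoxin gene AT4G15660, with 6.69, 6.70 and 5.70 in cat2, 6.03, 5.65 and 4.78 in cat2 rbohD and 5.51, 5.64 and 5.69 in cat2 rbohF.

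**Figure D3:**
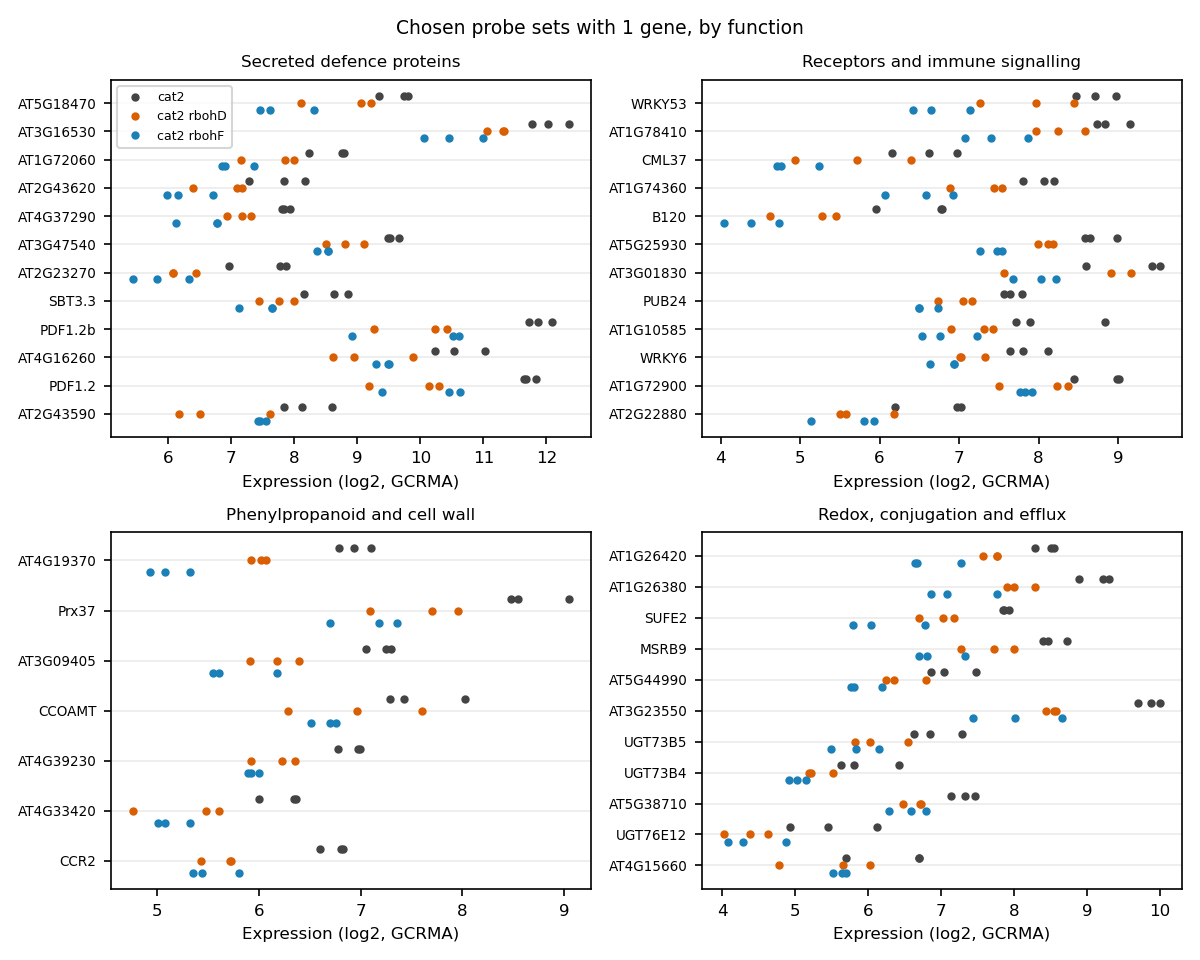
Log2 expression values (x axis) of the genes in the 4 larger function groups, 1 row per gene and 1 point per array, with cat2 in grey, cat2 rbohD in orange and cat2 rbohF in blue. Mean levels in cat2 rbohF are under those in cat2 rbohD for 12 of 12 receptors and immune signalling genes and for 8 of 12 secreted defence genes. The same holds for 136 of all 152 chosen probe sets.

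Outside these groups, AT5G48570, which encodes an immunophilin with peptidyl-prolyl isomerase domains, had the most negative difference between the double mutants of the 152. It read 7.65, 7.93 and 6.43 in cat2, 7.14, 7.01 and 5.97 in cat2 rbohD and 5.11, 5.89 and 4.55 in cat2 rbohF. Replicate 3 was the lowest array in all 3 genotypes, and the step of -1.52 ± 0.46 missed the threshold (SE, limma adjusted p = 0.0984). GH3.3, which conjugates auxin to amino acids, read 8.29, 7.60 and 8.52 in cat2, 6.30, 7.18 and 7.27 in cat2 rbohD and 7.03, 7.05 and 6.87 in cat2 rbohF, with overlapping double mutants.

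A few of the named genes rested on uneven cat2 arrays. AT5G62080, of the lipid transfer protein family, read 6.47 and 6.81 on 2 cat2 arrays but 4.16 on the third, close to its 3.98, 3.88 and 4.04 in cat2 rbohD and 3.79, 3.84 and 4.05 in cat2 rbohF. All its arrays but those 2 lay under the filter value, and it was too dim to be tested. AT5G22430 read 7.50, 5.64 and 4.57 in cat2, 4.57, 5.42 and 5.53 in cat2 rbohD and 4.42, 3.96 and 4.5 in cat2 rbohF. For both, at least 1 cat2 array was within the range of a double mutant or close to it.

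Over all 152, arrays of 1 genotype varied more than is usual on these arrays. The median SD within cat2 was 0.29, against 0.11 over all probe sets with the cat2 minimum. The median deviation from the cat2 mean was 0.00, 0.15 and -0.16 on the cat2 arrays, -0.80, -0.71 and -1.09 in cat2 rbohD and -1.48, -1.11 and -1.36 in cat2 rbohF. Each of the 6 double mutant arrays thus lay below each cat2 array in this median, and cat2 rbohD replicate 3 came close to cat2 rbohF replicate 2. All cat2 rbohD arrays lay below all cat2 arrays at 118 of the 152 and all cat2 rbohF arrays at 148, beside 7.58% and 21.0% of all probe sets with the cat2 minimum, and the limma calls were 23 and 137 of 148, beside 0.187% and 9.89%. The rule chose the probe sets on these contrasts, so nothing is read from these counts or from the array medians lying below cat2. The 23 fell to 6, 5 and 7 without cat2 replicate 2, cat2 replicate 3 and cat2 rbohD replicate 1.

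**Figure D4:**
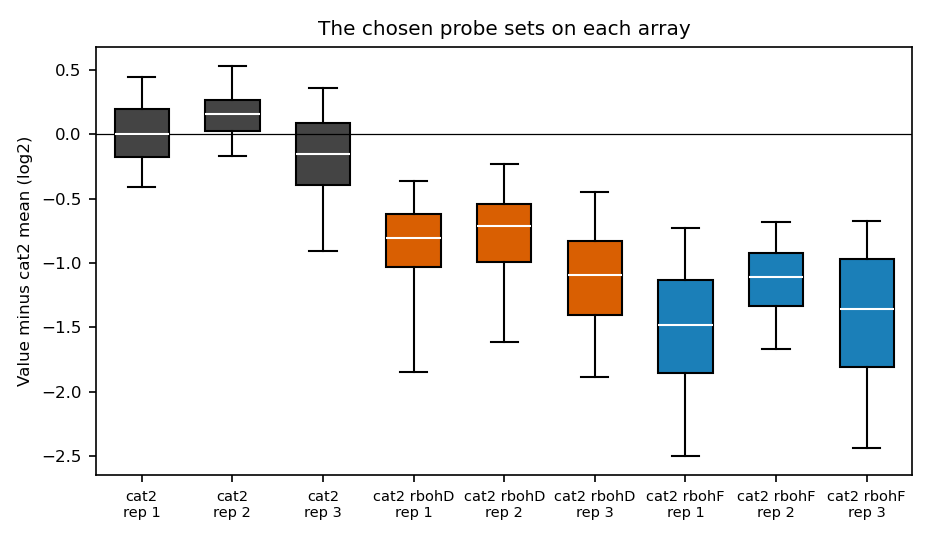
Value minus the cat2 mean (y axis, log2) of the 152 chosen probe sets on each of the 9 arrays (x axis), with white lines for medians, boxes for the middle 50% and whiskers from the 5th to the 95th percentile. The medians are 0.00, 0.15 and -0.16 in cat2, -0.80, -0.71 and -1.09 in cat2 rbohD and -1.48, -1.11 and -1.36 in cat2 rbohF.

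The within-genotype spread was shared by many of the probe sets. The third cat2 array was the lowest cat2 array at 89 of the 152 (58.6%). Over all probe sets with the cat2 minimum this share was 32.1%. At 70 of these 89, cat2 rbohD replicate 3 was also the lowest of its genotype. Over the 152, cat2 rbohD replicate 3 was lowest at 61.2%, beside 33.6% of all with the cat2 minimum. The third cat2 array was the highest cat2 array at 37. The 89 included 11 of the 12 receptors and immune signalling genes and 7 of the 12 secreted defence genes, and the 37 included none and 2 of them. The median difference between the double mutants was -0.51 over the 89 and -0.16 over the 37, a description of probe sets sorted by their own values.

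The rule was also applied to the arrays of 2 replicate numbers at a time and the chosen probe sets read on the 3 arrays left out, 1 per genotype. It chose 225, 170 and 168 probe sets with number 1, 2 and 3 left out, of which 132, 128 and 128 are among the 152. On the arrays left out both double mutants were below cat2 at 90.7%, 90% and 89.3% of them, against 31.3%, 33.9% and 38.5% of all probe sets with the same cat2 minimum. Both were lower by 0.6 or more at 42.7%, 60% and 56.0%, against 1.28%, 1.92% and 2.79%. The level in cat2 rbohF was below that in cat2 rbohD at 87.1%, 89.4% and 73.8%, beside 48.8%, 50.4% and 52.2%. Both differences from cat2 were read against the same single cat2 array, and the numbers were not taken to pair the samples. Many of the probe sets also varied together on an array, so these shares do not count independent readings.

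**Figure D5:**
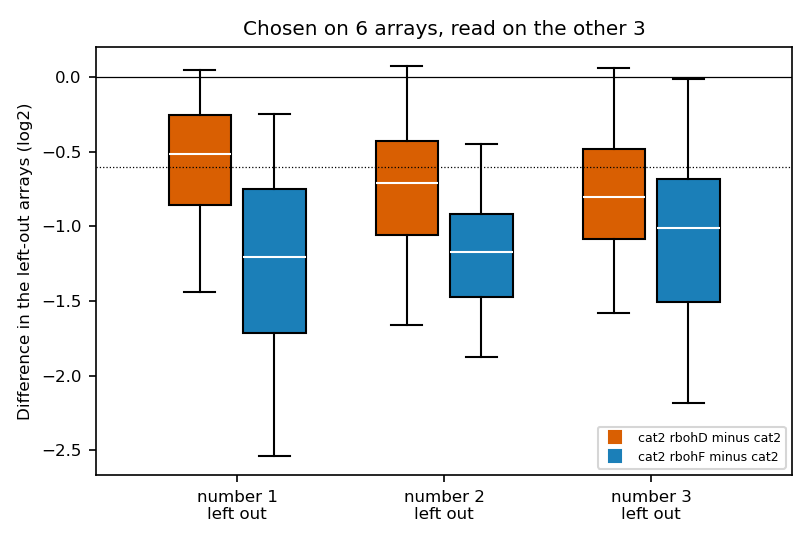
Differences from cat2 (y axis, log2) on the 3 arrays of 1 replicate number, for probe sets chosen on the other 6 arrays, with white lines for medians, boxes for the middle 50%, whiskers from the 5th to the 95th percentile and a dotted line at -0.6. The medians are -0.52, -0.71 and -0.81 in cat2 rbohD and -1.20, -1.17 and -1.01 in cat2 rbohF for numbers 1, 2 and 3.

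The limit of -0.6 fell within a continuous range. Just inside it were AT1G19020, AT4G22530 and AT2G24600, with cat2 rbohD differences of -0.61, -0.61 and -0.63 and cat2 rbohF differences of -1.31, -1.3 and -0.75. Just outside were AT5G52740, Fes1A and AT5G03610, with -0.60 in cat2 rbohD for all 3 and -1.01, -1.20 and -1.05 in cat2 rbohF.

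The 12 lists of defence, stress, phenylpropanoid, immunity, heat shock and hormone genes held 152 loci, a count unrelated to the 152 probe sets. Of these loci only 30 were named by the annotation, 27 were tested and 9 are among the 152 probe sets. The other loci of the lists were not seen. Over the 27, limma called 2 lower and 0 higher in cat2 rbohD than in cat2, 19 lower and 0 higher in cat2 rbohF than in cat2, and 1 lower and 0 higher in cat2 rbohF than in cat2 rbohD. Among all tested, 0.187% were called lower and 0.0216% higher in cat2 rbohD than in cat2, 9.89% lower and 6.47% higher in cat2 rbohF than in cat2, and 1.06% lower in cat2 rbohF than in cat2 rbohD. The 9 that are among the 152 probe sets were chosen for being lower than cat2. The lists were chosen with earlier results of these data known, so nothing is read from these counts. NDB2, which oxidises cytosolic NADH at the inner mitochondrial membrane, was the 1 gene called lower in cat2 rbohF than in cat2 rbohD. It differed from cat2 by -0.40 in cat2 rbohD and by -1.33 in cat2 rbohF. The glucosyltransferase gene UGT76B1 missed the rule by its cat2 rbohD difference of -0.58, with -1.65 in cat2 rbohF, and the beta-glucosidase gene BGLU45 missed it by its cat2 rbohF difference of -0.58, with -1.30 in cat2 rbohD.

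Of 7 marker lists for cell types and organs, mesophyll among them, 2 had a tested gene, and mesophyll was not among these. The guard cell marker FMA differed from cat2 by -0.26 in cat2 rbohD and 0.15 in cat2 rbohF, and the root marker PYK10 by 0.39 and 1.35 (limma adjusted p = 0.629 and 0.00836). Of the RNA quality controls, the log2 ratio of 3' to 5' signal of 1 GAPDH pair was 0.69 to 0.79 in cat2, 0.81 to 0.95 in cat2 rbohD and 0.87 to 0.99 in cat2 rbohF, while the other GAPDH pair had means of -0.03, -0.13 and -0.22. The actin pair of the second kind was highest in cat2 rbohD, at 1.33 to 1.49. The part of PYK10 and of these ratios in the differences was not tested.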

How the data were processed

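Leaf RNA of 3 genotypes, 3 pools each, was hybridised to 9 Affymetrix arrays. The deposited log2 expression values were made by the authors with GCRMA. This step is named in the submitters' processing notes, with no version, and per the labels' protocols biotin-labelled RNA was hybridised. The values were used as deposited. Control probe sets (64 of 22810) were left out. Array intensities carry no counts, and the 3 arrays per genotype limit the precision. The labels call the pools biological replicates.

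One model with a mean per genotype was fitted to the 9 arrays with limma 3.58.1 (R 4.3.3) on 13888 probe sets above 5.14, percentile 40 of the table, on 3 arrays or more. P-values were adjusted by Benjamini-Hochberg over all 13888, with a threshold of 0.05. The fit was tested on simulated data. Alternatives were the filter, normalization, array weights, the arrays compared alone, a replicate block, thresholds of -0.5 and -0.8, and each array left out. Deviations of same-numbered arrays from their genotype means correlated at -0.11, 0.25 and 0.15 between the double mutants, at -0.24, 0.011 and 0.16 between cat2 and cat2 rbohD, and at 0.14, 0.15 and 0.17 between cat2 and cat2 rbohF. As 3 of the 9 pairs were not over 0.1, the numbers were not taken to pair the samples.

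The members and gene lists were chosen with earlier results of these data known. Named genes were the 20 with the largest mean difference, the 6 lowest and the 6 highest in the difference between double mutants, list members, the 3 nearest the limit on either side and 3 unnamed probe sets. Other genes named as examples of a function group or for their call were chosen after their values were seen. The annotation gave 1 gene for 13513 probe sets, several for 503 and none for 8730. Gene order came from RefSeq's TAIR10.1 table. Promoter and protein sequences were not analysed here.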

Additional observations from a re-analysis of the deposited data

How the results depend on the processing

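The 152 probe sets numbered 254 at a limit of -0.5 and 77 at -0.8, and 125 to 222 with 1 array left out. Calls between the double mutants depended most on single arrays. Over all probe sets the 267 calls became 1 to 1065 with 1 array left out (1 without cat2 rbohF replicate 1, 1065 without cat2 rbohD replicate 3), 703 under array weights, 2 when the 6 double mutant arrays were fitted alone, 164 without a filter and 455 under a stricter one. Among the members the 11 lower calls became 0 to 38 with 1 array left out, 20 with array weights, 0 with only the 6 arrays and 28 with the replicate block, while the 1 higher call was found under all 19 alternatives. The 23 members called lower in cat2 rbohD than in cat2 became 5 to 29 with 1 array left out, 10 with the stricter filter, 14 with only the 6 arrays and 44 with the replicate block. The numbers were not taken to pair the samples, although all 3 correlations between cat2 and cat2 rbohF, and all 3 among arrays numbered 3, were over 0.1. The 137 called lower in cat2 rbohF than in cat2 stayed within 102 to 144, with 142 under the block. The cause of these shifts was not tested.

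Uncalled differences between the double mutants changed sign for PDF1.2b (-0.31 to 0.59 with 1 array left out; -0.31, -0.21 and -0.25 without cat2 rbohD replicate 1, cat2 rbohF replicate 1 and cat2 rbohF replicate 2), PDF1.2 (-0.054 to 0.68), GH3.3 (-0.24 to 0.24), AT4G15660 (-0.23 to 0.40), 247573_at (0.03 and 0.10 without cat2 rbohD replicate 3 and cat2 rbohF replicate 3) and 252265_at (-0.17 to 0.14, -0.004478 after quantile normalization and -0.000629 with arrays centred on their medians). Of 34 named genes and probe sets tested, 5 were called between the double mutants and 1 of these, 248719_at, under every alternative run. With 3 arrays per genotype, and compressed differences near the dim end of the scale, smaller steps between the double mutants could not be resolved.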
